A study of Mus musculus with 3 samples.

Results

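The 32 genes described here encode enzymes that make sterols and fatty acids, the regulators of those enzymes and proteins that carry or export cholesterol. They were taken by name from a list of lipid synthesis and SREBP genes, and all 32 were found among the 27998 genes counted in each library. By role, 18 are enzymes of sterol synthesis from Acat2 to Dhcr7, 5 are regulators (Srebf1, Srebf2, Scap, Insig1 and Insig2), 6 are enzymes of fatty acid synthesis (Acly, Acaca, Fasn, Scd1, Scd2 and Elovl6) and 3 act in cholesterol transport (Stard4, Abca1 and Abcg1).

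The counts come from single cells of mouse dorsal cortex at postnatal day 2, in 1 droplet library for each of 3 genotypes. The Emx1-Cre mutant (labelled EMX-Cre_MAP2K1/2-dcko) and the hGFAP-Cre mutant (labelled hGFAP-Cre_MAP2K1/2-dcko) are double conditional knockouts of Map2k1 and Map2k2, the genes of the kinases MEK1 and MEK2 that activate ERK. The control carried the Map2k1 and Map2k2 flox alleles, and its genotype label reads WT. Emx1-Cre is active in progenitors of the dorsal telencephalon from early in cortical development, and hGFAP-Cre, driven by the human GFAP promoter, in radial glia later in gestation. In all 3 genotypes FlashTag (0.5 µl of 10 mM), a dye that marks cells dividing along the ventricle, was injected at embryonic day 18, and tdTomato-positive cells were sorted at collection. The sources used here do not give the allele that carries tdTomato, the number of pups in a library or whether the dye entered the gate. The title of the study names NOTCH, ERK and SHH signalling in the choice between cortical astrocytes, oligodendrocytes and olfactory bulb interneurons.

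Cells build cholesterol from acetyl-CoA through mevalonate, farnesyl diphosphate, squalene and lanosterol. The transcription factor SREBP2, encoded by Srebf2, drives the genes of this route, and SREBP1, encoded by Srebf1, those of fatty acid synthesis. SCAP escorts both factors to the Golgi for cleavage when membrane sterol is low, and the INSIG proteins hold them back in the endoplasmic reticulum when it is high. The brain makes nearly all of its own cholesterol, and astrocytes and the cells that form myelin are known as its main producers.

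After filters the Emx1-Cre, hGFAP-Cre and control libraries held 12173, 12065 and 9537 cells, with a median of 4984, 5321 and 6427 UMIs (counted transcript molecules) per cell. The lowest UMI count of any deposited barcode was 2644, 3065 and 500, so the cutoff differed between libraries. Pairs of libraries shared 43 to 54 cell barcodes. Levels are given as CPM, the share of a class's UMIs in a library that a gene holds, as counts per 1e+06 UMIs. They count molecules by a tag at the end of the transcript, so levels of different genes need no correction for length. Intervals are exact Poisson 95% intervals and cover counting error only, since with 1 library per genotype no spread between animals could be measured and no test between genotypes was made. The targeted genes were still counted: Map2k1 had 13.9, 16.2 and 16.6 CPM in the Emx1-Cre, hGFAP-Cre and control libraries, while Map2k2 had 217, 214 and 196 CPM. The labels do not give the deleted exons, so these end tags check neither deletion. The female transcript Xist stood at 0.122, 0.948 and 1462 CPM and the Y-linked Ddx3y at 37.1, 45.5 and 0 CPM, where 0 counts allow up to 0.0387 CPM in the control. Sex and genotype therefore cannot be told apart in any comparison here, and Ebp and Nsdhl lie on the X chromosome. Neurod6, a transcription factor of cortical excitatory neurons, was present in each library, at 158, 171 and 265 CPM.

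Clustering gave 33 clusters, of which 29 took the name of 1 of 12 cell classes from marker genes and 4 stayed unnamed. The classes are called "-like" because the names rest on these markers alone. The astroglia-like class held 1856 Emx1-Cre, 2430 hGFAP-Cre and 1882 control cells. Other classes were unequal between libraries: deep-layer neuron-like cells numbered 685, 130 and 47, Cajal-Retzius neuron-like cells 1409, 373 and 109, and ependymal lineage-like cells 1208, 395 and 31.

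Promoter sequences are shown for 5 genes whose levels went apart in the comparisons that follow: Hmgcs1 and Idi1, high in astroglia-like cells of the hGFAP-Cre library, Mvk and Srebf2, low in most classes of both mutants, and the exporter gene Abca1. Each run holds the 250 bases before the start of transcription in RefSeq on build GRCm38.p6, written 5′ to 3′ on the strand of the gene. They lie at chr13:119690101-119690350 on the plus strand for Hmgcs1, chr13:8885356-8885605 on the plus strand for Idi1, chr5:114444019-114444268 on the plus strand for Mvk, chr15:82147019-82147268 on the plus strand for Srebf2 and chr4:53159896-53160145 on the minus strand for Abca1. Capitals mark matches, on either strand, to the core of the sterol regulatory element bound by SREBP (TCACNCCAC), the CCAAT box (CCAAT, which reads ATTGG on the other strand) and the GC box (GGGCGG, which reads CCGCCC on the other strand).
Hmgcs1: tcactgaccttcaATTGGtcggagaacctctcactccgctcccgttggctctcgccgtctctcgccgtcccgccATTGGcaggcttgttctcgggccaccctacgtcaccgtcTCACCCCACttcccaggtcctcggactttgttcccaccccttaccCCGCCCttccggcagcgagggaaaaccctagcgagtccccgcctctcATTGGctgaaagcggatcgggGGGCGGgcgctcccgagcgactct
Idi1: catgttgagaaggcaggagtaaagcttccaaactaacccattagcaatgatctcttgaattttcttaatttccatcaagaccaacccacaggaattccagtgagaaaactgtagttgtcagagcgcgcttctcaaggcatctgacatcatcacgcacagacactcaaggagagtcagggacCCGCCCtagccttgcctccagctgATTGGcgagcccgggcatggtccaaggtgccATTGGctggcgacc
Mvk: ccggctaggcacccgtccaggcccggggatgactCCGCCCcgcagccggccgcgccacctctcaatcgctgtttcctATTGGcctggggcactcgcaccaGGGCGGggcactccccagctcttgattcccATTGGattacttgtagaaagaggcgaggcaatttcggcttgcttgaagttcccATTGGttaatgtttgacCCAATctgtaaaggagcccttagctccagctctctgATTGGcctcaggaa
Srebf2: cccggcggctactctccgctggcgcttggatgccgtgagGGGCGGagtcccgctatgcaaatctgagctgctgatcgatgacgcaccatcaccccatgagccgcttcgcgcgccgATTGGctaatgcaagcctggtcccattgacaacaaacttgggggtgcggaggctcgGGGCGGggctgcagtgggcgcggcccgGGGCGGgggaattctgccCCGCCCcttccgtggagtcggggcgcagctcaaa
Abca1: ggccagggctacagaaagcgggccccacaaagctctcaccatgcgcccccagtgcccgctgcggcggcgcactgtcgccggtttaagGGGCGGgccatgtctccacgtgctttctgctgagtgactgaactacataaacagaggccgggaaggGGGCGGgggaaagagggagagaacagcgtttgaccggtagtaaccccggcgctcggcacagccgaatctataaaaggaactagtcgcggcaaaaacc

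RefSeq held 33 promoters for 25 of the 32 genes, and no entry was matched for Scd1, Fdft1, Scd2, Abcg1, Sqle, Stard4 and Fdps. The sterol regulatory element core was found in 1 of the 33 promoters, that of Hmgcs1, or 3.03%, against 346 of all 32851 promoters, or 1.05%. The CCAAT box, known as the binding motif of NF-Y, was in 20 of the 33 (60.6%), against 33.8% of all promoters. The GC box, known as the motif of SP1, was in 24 (72.7%), against 32.7%. The Mvk run holds 5 CCAAT boxes and the Srebf2 run 4 GC boxes, while the Abca1 run has GC boxes and no CCAAT box. None of these motifs overlaps another in the printed runs. A match is a description of letters, and no match says only that these letters are not in this window.

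Summed sterol enzyme transcripts were high in deep-layer neuron-like, astroglia-like and oligodendrocyte precursor-like cells and lowest in microglia-like cells in each library. Deep-layer neuron-like cells, the projection neurons of the lower cortical layers, held 2103 CPM in the Emx1-Cre, 1744 in the hGFAP-Cre and 2787 in the control library. Astroglia-like cells held 1440, 2871 and 2073 CPM, and so stood above the deep-layer class in the hGFAP-Cre library and below it in the others. Oligodendrocyte precursor-like cells held 1794, 1545 and 1615 CPM, above the astroglia-like class in the Emx1-Cre library. Microglia-like cells, which come from the yolk sac and not from cortical progenitors, had 315, 324 and 317 CPM. Their 3 values lay within each other's intervals, of which the widest was 285 to 347 CPM in the Emx1-Cre library.

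Fatty acid enzymes had another order. Their sum in astroglia-like cells was 535 CPM in the Emx1-Cre, 1067 in the hGFAP-Cre and 724 in the control library, with ependymal lineage-like cells at 604, 650 and 625 CPM and oligodendrocyte precursor-like cells at 602, 571 and 637 CPM. In the Emx1-Cre library the astroglia-like sum was thus below the ependymal and precursor sums. Deep-layer neuron-like cells, rich in sterol enzymes, had only 339, 310 and 554 CPM. Scd2, a stearoyl-CoA desaturase that makes oleate, held most of the sum in astroglia-like and ependymal lineage-like cells, and 83.4 of 228 CPM in Cajal-Retzius neuron-like cells of the Emx1-Cre library.

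**Figure D1:**
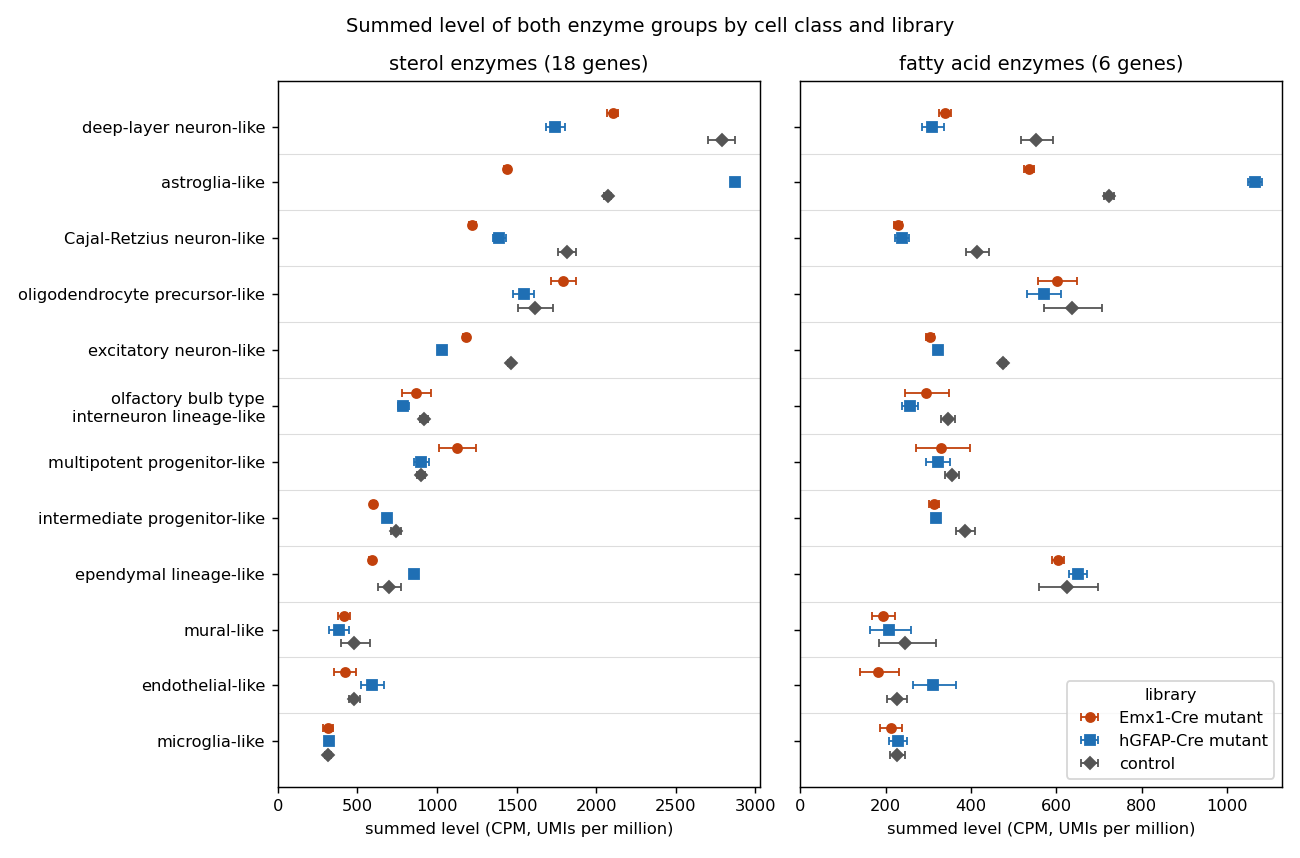
Summed level of the 18 sterol enzymes (left) and the 6 fatty acid enzymes (right), in CPM, for each cell class (rows, sorted by the control's sterol sum) and library (colour and marker). Bars are exact Poisson 95% intervals of 1 library each. In deep-layer, Cajal-Retzius and excitatory neuron-like cells both mutants lie below the control. For excitatory sterol enzymes this turns with the nearly all-control cluster 20 alone left out. In astroglia-like cells the hGFAP-Cre library lies above the control and the Emx1-Cre library below it.

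Single genes followed the sterol sum to very different degrees. Over the 36 points of 12 classes in 3 libraries, Spearman's rho between a gene and the sum of the other sterol enzymes was 0.96 for Hmgcs1, which makes HMG-CoA, 0.94 for the fatty acid synthase gene Fasn, and 0.91 for Nsdhl and for Fdps. These values are descriptions: the points share libraries and classes. Srebf2 stood at 0.77 and Insig1, itself known as an SREBP target, at 0.82. Srebf1 stood at −0.36 and Insig2 at −0.15. The exporters Abca1 and Abcg1, which load cholesterol onto lipoproteins and are known targets of the liver X receptors, stood at −0.65 and −0.77.

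Several genes had their highest level outside the classes rich in the pathway. Sqle, squalene epoxidase, reached 215 CPM in ependymal lineage-like cells of the Emx1-Cre, 251 of the hGFAP-Cre and 221 of the control library, against 62.6, 120 and 125 CPM in astroglia-like cells. Cyp51, which acts later on the route by demethylating lanosterol, had only 8.08, 19.8 and 9.59 CPM in the ependymal lineage-like class. Ebp, a sterol isomerase, was highest in microglia-like cells, at 68.0, 79.2 and 85.1 CPM, where the sterol sum was at its lowest. Abca1 had 494, 491 and 645 CPM in microglia-like cells and Abcg1 196, 179 and 170 CPM. In deep-layer neuron-like cells Abca1 was close to the bottom of its range, at 2.64, 2.20 and 0.672 CPM. Stard4, a carrier of cholesterol between membranes, was highest in endothelial-like cells, at 54.0, 52.3 and 60.8 CPM.

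**Figure D2:**
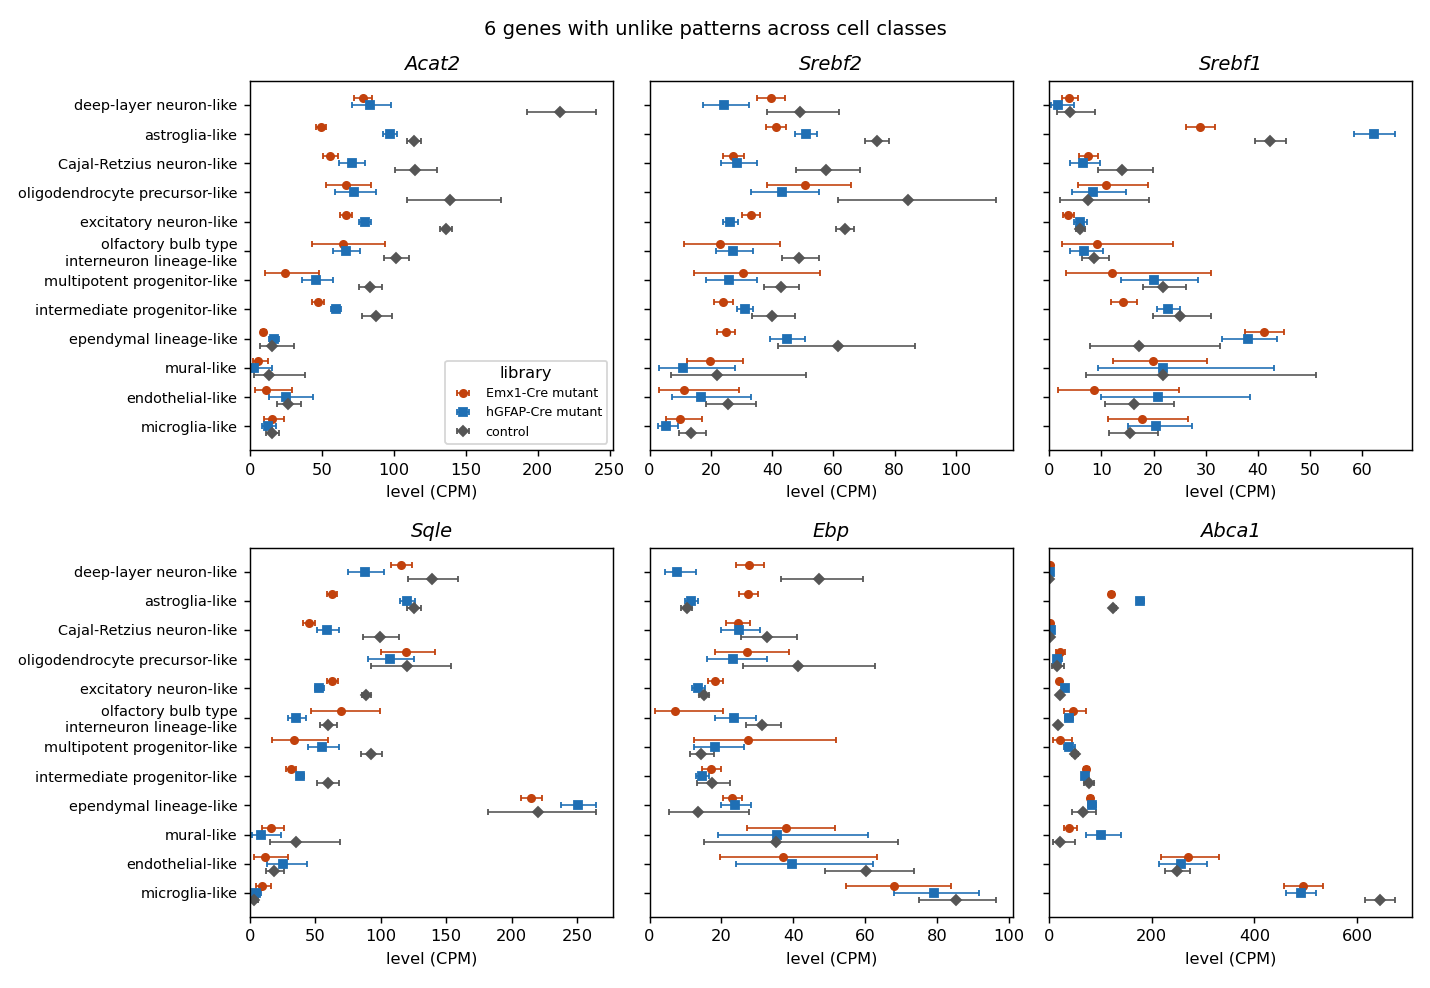
Level in CPM of 6 of the genes by cell class (rows, in the order of the plot of summed levels) and library, with exact Poisson 95% intervals; each panel has its own axis from 0. Acat2 and Srebf2 lie lower in both mutants in most rows, Sqle peaks in ependymal lineage-like cells, and Ebp and Abca1 peak in microglia-like cells.

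In the whole libraries the sterol enzymes took a smaller share of the UMIs in both mutants than in the control, with 1139 CPM in the Emx1-Cre, 1375 in the hGFAP-Cre and 1572 in the control library. The log2 ratio of the sums was −0.47 (−0.48 to −0.45) for the Emx1-Cre mutant and −0.19 (−0.21 to −0.18) for the hGFAP-Cre mutant. In a whole library, fewer cells of a class and less of the RNA per cell cannot be told apart. With the 12 classes weighted by the control's shares of UMIs, the sterol sums were 1161 in Emx1-Cre and 1443 in hGFAP-Cre cells against 1467 CPM, or log2 ratios of −0.34 and −0.023. Cluster 20 of the excitatory neuron-like class held 530 control, 3 Emx1-Cre and 12 hGFAP-Cre cells and was rich in sterol enzymes. Without it the whole-library sums were 1139 CPM in Emx1-Cre and 1374 in hGFAP-Cre against 1401 CPM in control cells, and the log2 ratios −0.30 and −0.029. With cluster 20 counted, the fatty acid sum was 404, 527 and 534 CPM, a log2 ratio of −0.40 in Emx1-Cre and −0.018 in hGFAP-Cre cells. Without that cluster it was 404, 528 and 524 CPM, or log2 ratios of −0.38 and 0.010.

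Acat2, the cytosolic thiolase that opens the route, had the lowest ratio of the Emx1-Cre mutant over the control. It had 48.3 CPM in the Emx1-Cre, 68.1 in the hGFAP-Cre and 116 in the control library, or log2 ratios of −1.18 and −0.73. Srebf2 had 31.8, 35.3 and 61.0 CPM (−0.84 and −0.71). Tm7sf2, a sterol reductase, had 8.11, 6.75 and 19.3 CPM, and Elovl6, which elongates fatty acids, 26.9, 26.1 and 52.1 CPM. These 4 genes were below the control in both mutants. Hmgcs1 parted them, with 194 CPM in Emx1-Cre and 290 in hGFAP-Cre cells against 298 in the control, as did Idi1, isopentenyl diphosphate isomerase, at 84.7 and 143 against 128 CPM. Pmvk, the kinase after Mvk, was slightly above the control in both, at 95.2 and 100 against 82.5 CPM.

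A gene is counted here as differing when log2(CPM + 5) differs at least 1.5-fold and the gene reaches 10 CPM in either library. Single-gene log2 ratios are on this scale, which understates the ratio of low genes. Of the 32 genes, 31 reached 10 CPM in the whole libraries. In the Emx1-Cre mutant 10 of the 31 were lower (Acat2, Hmgcs1, Mvk, Cyp51, Tm7sf2, Srebf2, Fasn, Acly, Elovl6 and Stard4), where 18.8% of all genes were lower, and 0 were higher, where 11.5% of all genes were. The hGFAP-Cre mutant had 5 of 31 lower (Acat2, Mvk, Tm7sf2, Srebf2 and Elovl6), where 12.1% of all genes were, and 0 were higher, where 9.25% were. Without cluster 20, 7 of 31 were lower in the Emx1-Cre mutant, where 19.7% of all genes were, and 0 higher, where 12% were. In the hGFAP-Cre mutant 3 were then lower (Tm7sf2, Srebf2 and Elovl6), where 11.9% of all genes were, and 0 higher, where 8.95% were. The median log2 ratio of the 31, with cluster 20, was −0.42 in the Emx1-Cre mutant, against −0.19 for all genes, and −0.19 in the hGFAP-Cre mutant, against −0.09 for all genes.

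In astroglia-like cells the mutants lay on opposite sides of the control. The sterol sum was 1440 CPM (1421 to 1459) in the Emx1-Cre, 2871 (2844 to 2898) in the hGFAP-Cre and 2073 (2052 to 2094) in the control library. The log2 ratio was −0.53 (−0.55 to −0.50) for the Emx1-Cre mutant and 0.47 (0.45 to 0.49) for the hGFAP-Cre mutant. Different clusters held most of the class in each library: cluster 9 held 65.0% of it in the Emx1-Cre library, cluster 3 held 90.6% in the hGFAP-Cre library and cluster 8 held 69.3% in the control. Cluster 10, with genes of cell division at its top, held 34.3% of the Emx1-Cre and 26.9% of the control class, and 113 of the 2430 hGFAP-Cre cells.

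Of the 31 genes at 10 CPM in astroglia-like cells, 11 were lower in the Emx1-Cre mutant, where 31.3% of all genes were, and 1 was higher (Ebp), where 7.56% of all genes were. The share of lower members was thus near that of all genes; the median was −0.48 for the members and −0.33 for all genes. In the hGFAP-Cre mutant 0 were lower, where 15.5% of all genes were, and 6 were higher (Hmgcs1, Pmvk, Fdps, Nsdhl, Sc5d and Scd2), where 10.9% were. The median was 0.14 for the members and −0.09 for all genes.

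The enzymes up to farnesyl diphosphate parted the mutants most in absolute level. Their sum was 807 CPM in the Emx1-Cre, 1878 in the hGFAP-Cre and 1246 in the control library, or log2 ratios of −0.63 and 0.59. Hmgcs1 led them, with 241 CPM (233 to 248) in the Emx1-Cre, 751 (737 to 765) in the hGFAP-Cre and 427 (418 to 437) in the control library. Its promoter is the only 1 of the 33 searched for the members with the sterol regulatory element core. Idi1, which had the same order, has 0 matches to it, and Fdps had no promoter to search. The part of this motif in the levels was not tested. Idi1 had 159, 374 and 253 CPM, and Fdps, which makes farnesyl diphosphate, 171, 364 and 239 CPM. Acat2 and Mvk, mevalonate kinase, did not share this order. Acat2 stood at 49.1 CPM in Emx1-Cre and 97.0 in hGFAP-Cre cells against 114 in the control, and Mvk at 40.6 and 67.5 against 80.2 CPM. Both mutants were thus below the control for these genes. Pmvk went the other way in the hGFAP-Cre library, at 121 CPM in the Emx1-Cre, 192 in the hGFAP-Cre and 104 in the control library. Mvd, the decarboxylase of the route, had 25.5, 32.5 and 28.4 CPM.

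The steps from squalene to lanosterol were low in the Emx1-Cre mutant and close to the control in the hGFAP-Cre mutant, with sums of 150, 261 and 256 CPM (log2 ratios −0.77 and 0.026). Squalene synthase (Fdft1) had 77.1, 115 and 109 CPM, Sqle 62.6, 120 and 125 CPM, and lanosterol synthase (Lss) 10.4, 25.3 and 21.4 CPM. All 3 enzymes thus had their lowest level in the Emx1-Cre library.

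The later steps, which turn lanosterol into cholesterol, were more mixed, with sums of 482, 732 and 570 CPM (−0.24 and 0.36). Msmo1, a methylsterol oxidase, had 213 CPM in the Emx1-Cre, 311 in the hGFAP-Cre and 228 in the control library, and Cyp51 99.7, 147 and 140 CPM. Nsdhl, a sterol dehydrogenase, had 37.9, 97.7 and 57.5 CPM, and Sc5d, a desaturase, 46.0, 100 and 61.3 CPM. These 4 shared the order of Hmgcs1. Ebp did not: it had 27.3 CPM (24.7 to 30) in the Emx1-Cre library, against 11.5 (9.91 to 13.4) in the hGFAP-Cre and 10.3 (8.88 to 11.9) in the control library. It was the only one of the 32 genes counted as higher in Emx1-Cre astroglia-like cells. Tm7sf2 was below the control in both mutants, at 10.7, 13.2 and 21.7 CPM. Hsd17b7, a ketosteroid reductase of the route, had 13.5, 21.5 and 19.1 CPM and Dhcr7, the enzyme of the final reduction, 34.5, 29.4 and 32.7 CPM.

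Among the regulators, Srebf2 was below the control in both mutants although the sterol sum was not. It had 41.2 CPM (38.0 to 44.5) in the Emx1-Cre, 51.0 (47.5 to 54.7) in the hGFAP-Cre and 74.1 (70.2 to 78.1) in the control library. Srebf1 had 28.9, 62.2 and 42.4 CPM and Insig1 62.2, 137 and 91.6 CPM, both in the order of the sterol sum. Insig2 had 23.1, 33.6 and 30.3 CPM and Scap 19.0, 29.3 and 27.8 CPM.

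In the hGFAP-Cre mutant the fatty acid enzymes differed from the control chiefly through 1 gene. Scd2 had 384 CPM (375 to 394) in the Emx1-Cre, 843 (829 to 857) in the hGFAP-Cre and 494 (484 to 505) in the control library. Without it the log2 ratio of the fatty acid sum in the hGFAP-Cre mutant was −0.036 in place of 0.56. In the Emx1-Cre mutant the ratio without Scd2 was −0.60 in place of −0.44. Fasn had 58.3, 102 and 89.8 CPM and Acaca, acetyl-CoA carboxylase, 19.8, 33.1 and 30.1 CPM. Acly, which supplies acetyl-CoA from citrate, and Elovl6 were below the control in both mutants. Acly had 19.9, 31.6 and 41.3 CPM and Elovl6 26.0, 34.5 and 51.3 CPM. Scd1 was low in each library, at 27.0, 22.3 and 17.0 CPM, with the Emx1-Cre library highest.

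In cholesterol transport, Abca1 had 121, 177 and 125 CPM and Stard4 15.9, 18.3 and 27.0 CPM in astroglia-like cells. Abcg1 rested on 25 UMIs in the Emx1-Cre, 21 in the hGFAP-Cre and 7 in the control library, or 1.62, 1.36 and 0.381 CPM. It was the 1 gene of the 32 under 10 CPM in all 3 libraries of this class.

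**Figure D3:**
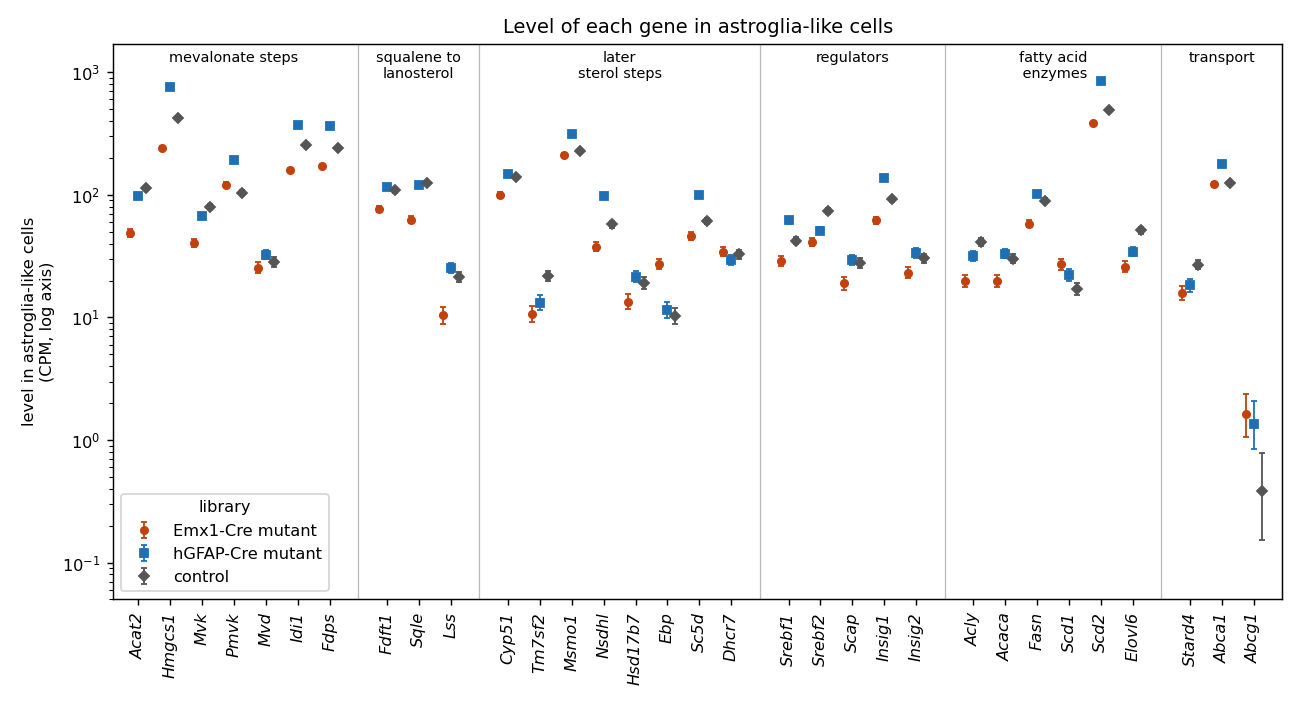
Level of each of the 32 genes in astroglia-like cells, in CPM on a log axis, in blocks by role and coloured by library; bars are exact Poisson 95% intervals. Most genes of the sterol route are lowest in the Emx1-Cre library, Hmgcs1, Idi1, Fdps and Scd2 are highest in the hGFAP-Cre library, Ebp is highest in the Emx1-Cre library, and Acat2, Mvk, Srebf2, Acly and Elovl6 are highest in the control.

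Within single clusters the high hGFAP-Cre sum was not seen. In cluster 3 the sterol sum was 3124 CPM in 2202 hGFAP-Cre cells and 3117 CPM in 32 control cells, a log2 ratio of 0.00 (−0.10 to 0.11). In cluster 8 it was 2385 CPM in 33 hGFAP-Cre and 2499 CPM in 1304 control cells, a log2 ratio of −0.07 (−0.19 to 0.06). The 32 control and 33 hGFAP-Cre cells in these clusters are those that clustered with cells of the other library. The part of that choice in the near-equal sums was not tested. The hGFAP-Cre and control classes differed in which cluster held most of their cells. With cluster 3 left out of the class, the hGFAP-Cre log2 ratio was −0.38 for sterol and −0.40 for fatty acid enzymes, on 228 hGFAP-Cre cells. With cluster 8 left out, the Emx1-Cre ratio of fatty acid enzymes was 0.058. The Emx1-Cre library had 13 cells in cluster 3 and 0 in cluster 8, too few for a level. Of 31 genes in cluster 3, 4 were lower in the hGFAP-Cre mutant (Acat2, Mvk, Tm7sf2 and Stard4), where 16.2% of all genes were, and 1 was higher (Lss), where 19.7% were. Acat2 had 107 CPM in hGFAP-Cre against 168 CPM in control cells of this cluster, and Mvk 71.8 against 124 CPM.

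In cluster 9 both mutants were far below the control. The sterol sum was 1699 CPM in 1206 Emx1-Cre and 2444 CPM in 82 hGFAP-Cre cells against 4569 CPM in 40 control cells, or log2 ratios of −1.43 (−1.5 to −1.36) and −0.90 (−0.99 to −0.81). Of 31 genes, 22 were lower in the Emx1-Cre mutant, where 18.9% of all genes were, and 1 was higher (Abca1), where 12.7% were. For hGFAP-Cre, 16 of 31 were lower, where 17.9% of all genes were, and 2 were higher (Srebf1 and Abca1), where 17.1% were. Acat2 led, at 52.7 CPM in Emx1-Cre and 69.7 in hGFAP-Cre cells against 261 CPM in the control. Sqle had 69.1 and 87.4 against 275 CPM, Nsdhl 46.7 and 60.2 against 190 CPM, and Fdps 194 and 328 against 708 CPM. Abca1 had 148 and 123 against 78.4 CPM. The median depth was 6847 UMIs per cell in the Emx1-Cre, 9936 in the hGFAP-Cre and 9946 in the control cells of this cluster. The control value rests on 40 cells, which clustered with cells of the mutants, and the part of that choice in the difference was not tested.

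The cycling cluster 10 held over 100 cells of each library, and there both mutants were below the control. The sterol sum was 1117 CPM in 637 Emx1-Cre and 954 CPM in 113 hGFAP-Cre cells against 1409 CPM in 506 control cells, or log2 ratios of −0.33 and −0.56. The hGFAP-Cre direction was thus the opposite of that in the whole class. Of 31 genes, 7 were lower in the Emx1-Cre mutant, where 24.7% of all genes were, and 2 were higher (Ebp and Abca1), where 7.38% were. In the hGFAP-Cre mutant 11 of 31 were lower, where 22.6% of all genes were, and 0 were higher, where 6.14% were. Acat2 stood at 44.3 and 34.2 against 108 CPM, Mvk at 37.3 and 32.8 against 71.6 CPM, and Stard4 at 13.5 and 6.84 against 24.1 CPM. Ebp, at 28.7 CPM in Emx1-Cre and 17.1 in hGFAP-Cre against 15.9 in control cells, kept the Emx1-Cre direction it had in the whole class.

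Clusters 14 and 24 stayed unnamed although 4 and 12 of the 12 astroglia markers were raised in them. Cluster 24 was nearly all control (10, 5 and 475 cells), with a sterol sum of 3077 CPM in the control. Cluster 14 was nearly all mutant (143, 723 and 11 cells), with 1285 CPM in Emx1-Cre and 1886 in hGFAP-Cre cells. With both joined to the class, the log2 ratio of the sterol sum was −0.67 for the Emx1-Cre and 0.18 for the hGFAP-Cre mutant, so the hGFAP-Cre value depends on where these cells are placed. This choice was made after the values were seen.

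In each library, astroglia-like cells with proliferation markers gave a smaller share of their UMIs to sterol enzymes than others of the class. With each cell thinned to 2500 UMIs, so that depth did not set who had a marker UMI, Mki67 or Top2a was counted in 33.8% of Emx1-Cre, 4.61% of hGFAP-Cre and 24.6% of control astroglia-like cells. In excitatory neuron-like cells, which do not divide, the shares were 0.557%, 0.327% and 0.890%. Unthinned, the astroglia-like shares were 49.1%, 7.94% and 31.1%. In the thinned cells the sterol sum was 1247, 1482 and 1503 CPM with a marker UMI, against 1727, 3085 and 2488 CPM without one. Over all UMIs of the cells without one, the log2 ratio to the control was −0.54 in Emx1-Cre and 0.27 in hGFAP-Cre cells. Among these 3 members were lower and 0 higher in the hGFAP-Cre mutant, where the whole class had 0 lower and 6 higher. The share of all genes that differed in the cells without a marker UMI is not given, so this count has no background. The part of the share of dividing cells in the hGFAP-Cre result was not tested.

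**Figure D4:**
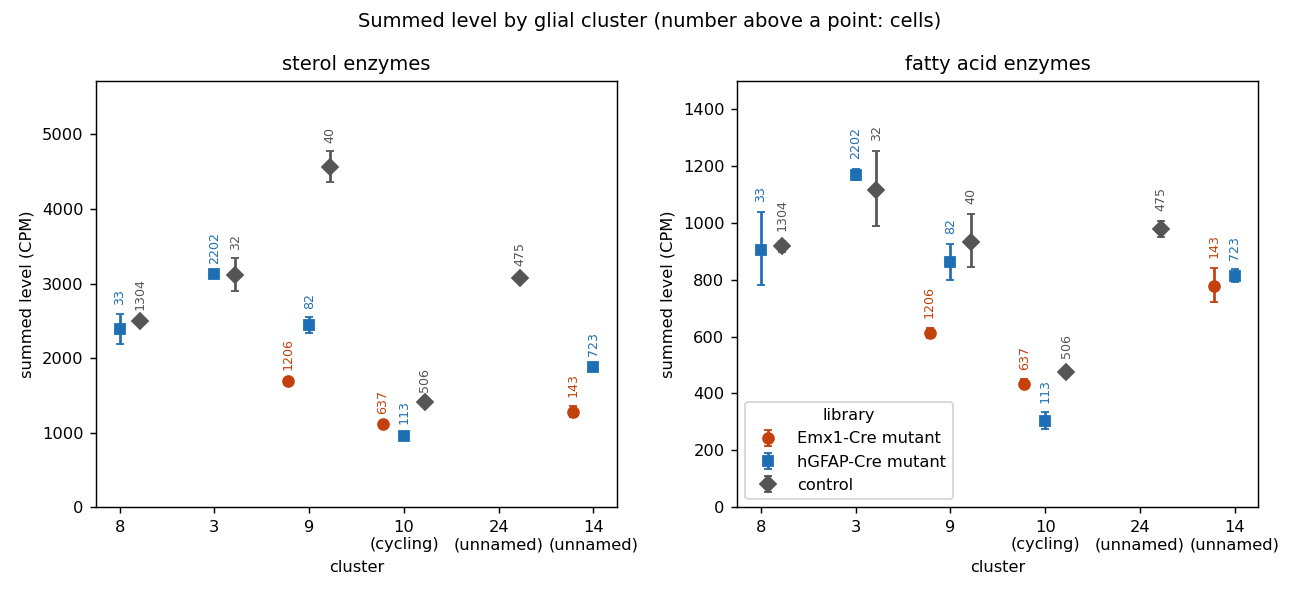
Summed level of the sterol enzymes (left) and the fatty acid enzymes (right), in CPM, by glial cluster and library, for clusters with at least 30 cells of that library; the number above a point counts its cells and bars are exact Poisson 95% intervals. The hGFAP-Cre and control points lie close in clusters 8 and 3, and both mutants lie below the control in cluster 10 and, for sterol enzymes, in cluster 9.

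The difference lay in many cells and not in a few. With each cell thinned to 2500 UMIs, the median astroglia-like cell had 3 sterol enzyme UMIs in the Emx1-Cre, 7 in the hGFAP-Cre and 5 in the control library, with quartiles of 1 to 5, 3 to 11 and 3 to 8. Unthinned medians were 9, 15 and 16 UMIs, at median depths of 7636, 5531 and 7889 UMIs. Thinning left out 0, 0 and 18 shallower cells. Cells with 0 sterol enzyme UMIs made up 11.5%, 3.09% and 4.29% of the thinned class, against 46.1%, 46.0% and 45.7% in microglia-like cells, a class with little of this pathway.

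In deep-layer and Cajal-Retzius neuron-like cells, each 1 cluster, both mutants were below the control for both enzyme groups. Deep-layer neuron-like cells had log2 ratios of the sterol sum of −0.41 (−0.46 to −0.36) in Emx1-Cre and −0.68 (−0.74 to −0.61) in hGFAP-Cre cells. The fatty acid ratios there were −0.71 and −0.84. Cajal-Retzius neuron-like cells, the Reln-expressing cells of the cortical surface, had 1222 CPM of sterol enzymes in the Emx1-Cre, 1393 in the hGFAP-Cre and 1818 in the control library, or −0.57 and −0.38. Depth moved with these results. The median deep-layer cell had 9959 UMIs in the Emx1-Cre, 13697 in the hGFAP-Cre and 32761 in the control library and the median Cajal-Retzius cell 6112, 8904 and 18928. Thinned to 2500 UMIs, deep-layer cells still averaged 5.06, 4.35 and 6.17 sterol enzyme UMIs and Cajal-Retzius cells 2.93, 3.32 and 4.40. The control values rest on 47 deep-layer and 109 Cajal-Retzius cells.

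No member was higher in either mutant in these classes. Of 28 genes in deep-layer neuron-like cells, 10 were lower in the Emx1-Cre mutant, where 18.7% of all genes were, and 0 higher, where 7.29% were. The hGFAP-Cre mutant had 16 of 28 lower, where 16.7% of all genes were, and 0 higher, where 9.1% were. Acat2 stood at 78.3 CPM in Emx1-Cre and 83.6 in hGFAP-Cre cells against 216 CPM in the control. Mvd had 40.7 and 41.8 against 96.7 CPM, Tm7sf2 15.7 and 11 against 38.3 CPM, and Acly 35.2 and 23.6 against 79.3 CPM. Ebp was lowest in the hGFAP-Cre library, at 27.7 CPM in Emx1-Cre and 7.70 in hGFAP-Cre cells against 47.0 CPM, a log2 ratio of −2.03 for the hGFAP-Cre mutant. Hmgcs1, at 489 and 367 against 673 CPM, was below the control in both mutants, unlike in astroglia-like cells. Idi1 was not, at 139 and 132 against 122 CPM.

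Of 28 genes in Cajal-Retzius neuron-like cells, 14 were lower in the Emx1-Cre mutant, where 15.2% of all genes were, and 0 higher, where 5.3% were. For hGFAP-Cre, 11 of 28 were lower, where 15.8% of all genes were, and 0 higher, where 5.11% were. Mvk stood at 30.9 CPM in Emx1-Cre and 39.5 in hGFAP-Cre cells against 79.0 CPM in the control, and Mvd at 29.8 and 46.0 against 75.2 CPM. Acly had 35.4 and 39.0 against 84.5 CPM, and Elovl6 22.5 and 23.0 against 53.9 CPM. Srebf2 had 27.2 and 28.6 against 57.6 CPM. The median log2 ratio of the 28 was −0.58 in Emx1-Cre and −0.37 in hGFAP-Cre cells, against −0.14 and −0.14 for all genes.

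In excitatory neuron-like cells the direction of the sterol sum depended on which clusters were counted. The class had 1184 CPM in the Emx1-Cre, 1030 in the hGFAP-Cre and 1462 in the control library, or log2 ratios of −0.30 and −0.51. Cluster 20, with 11.4% of the control class and under 1% of either mutant's, had 3036 CPM and 24590 of the control class's sterol enzyme UMIs, at a median of 15679 UMIs per cell. Inhba, Rasgrf2 and Mef2c are among the genes that lead it. Without it the sums were 1184, 1022 and 898 CPM, and both mutants stood above the control, at 0.40 (0.37 to 0.43) and 0.19 (0.16 to 0.22). Cluster 13, also rich in sterol enzymes, held 13.6% of the Emx1-Cre, 11.7% of the hGFAP-Cre and 0.691% of the control class. With cluster 13 left out instead, the log2 ratios were −0.82 and −0.95. With cluster 0 left out they were 0.31 and −0.52. Leaving out clusters 13 and 20 together was not tested.

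Within the 6 clusters that held at least 30 cells of each library, the 2 mutants had no common direction. Cluster 0, with 74.5% of the Emx1-Cre class, had 837 CPM in the Emx1-Cre, 1041 in the hGFAP-Cre and 874 in the control library. Cluster 1, with 35.9% of the hGFAP-Cre class, had 754, 809 and 806 CPM, and cluster 6, with 33.0% of the control class, 1047, 1211 and 1132 CPM. Cluster 4 had 633, 574 and 652 CPM and cluster 18 had 566, 606 and 600 CPM. Cluster 13, the next richest in sterol enzymes, had 2342 and 1974 against 2654 CPM, the last on 32 control cells. The Emx1-Cre sum was below the control in all 6, with an interval of the log2 ratio that left out 0 in cluster 13 alone (−0.18). The hGFAP-Cre sum was above the control in cluster 0 (0.25) and below it in clusters 4 (−0.18) and 13 (−0.43), and in the other 3 its interval held 0. Thinned to 2500 UMIs, the whole class averaged 2.59, 2.17 and 2.84 sterol enzyme UMIs with a median of 2 in each library, and thinning left out 0, 0 and 362 cells. The fatty acid sum was below the control in both mutants with cluster 20 and without it, with log2 ratios of −0.64 and −0.56, or −0.48 and −0.40 without it.

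Of 28 genes in the whole excitatory class, 7 were lower in the Emx1-Cre mutant, where 17.5% of all genes were, and 0 higher, where 4.39% were. For hGFAP-Cre, 9 of 28 were lower, where 11.7% of all genes were, and 0 higher, where 4.69% were. Without cluster 20, 3 were lower in the Emx1-Cre mutant (Srebf2, Acly and Elovl6), where 20.8% of all genes were, and 4 higher (Hmgcs1, Idi1, Fdps and Msmo1), where 7.07% were. Without it the hGFAP-Cre mutant had 4 lower (Tm7sf2, Srebf2, Acly and Elovl6), where 12.2% of all genes were, and 2 higher (Idi1 and Insig1), where 6.07% were. Srebf2 stood at 33.0 CPM in Emx1-Cre and 26.1 in hGFAP-Cre cells against 57.9 CPM in the control without cluster 20, and Acly at 34.6 and 33.6 against 65.8 CPM. Elovl6 had 34.5 and 33.2 against 59.1 CPM. These 3 genes were thus low in both mutants with the cluster and without it. Idi1 had 66.3 and 70.5 against 25.4 CPM, and Hmgcs1 209 and 161 against 111 CPM. Cluster 13, rich in sterol enzymes, was still counted in the values without cluster 20. It held 512 Emx1-Cre, 428 hGFAP-Cre and 32 control cells.

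Oligodendrocyte precursor-like cells differed little in the sterol sum, which was 1794 CPM (1716 to 1874) in the Emx1-Cre, 1545 (1481 to 1611) in the hGFAP-Cre and 1615 (1509 to 1726) in the control library. The log2 ratios were 0.15 (0.04 to 0.27) and −0.06 (−0.18 to 0.05). Of 32 genes 4 were lower in the Emx1-Cre mutant, where 21.3% of all genes were, and 6 higher, where 13.7% were. The hGFAP-Cre mutant had 5 of 31 lower, where 19.5% of all genes were, and 4 higher, where 11.5% were. Acat2 was low in both mutants here too, at 66.9 and 72.1 against 139 CPM, and Srebf2 had 50.6 and 43.1 against 84.5 CPM. Idi1 had 249 and 257 against 171 CPM. The control class held 63 cells, and the median depth was 3598 UMIs per cell in the Emx1-Cre, 6679 in the hGFAP-Cre and 7831 in the control library.

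In ependymal lineage-like cells, which line the ventricle, the mutants again lay on opposite sides of the control for sterol enzymes, at 589 CPM in the Emx1-Cre, 855 in the hGFAP-Cre and 700 in the control library. The log2 ratios were −0.25 (−0.40 to −0.09) and 0.29 (0.13 to 0.45), and the control value rests on 31 cells. Of 25 genes 9 were lower in the Emx1-Cre mutant, where 26.6% of all genes were, and 3 higher, where 13.2% were. For hGFAP-Cre, 4 of 27 were lower, where 17.4% of all genes were, and 8 higher, where 13.8% were. Hmgcs1 had 69.8 and 149 against 111 CPM, the order seen in astroglia-like cells. The SREBP genes lay on opposite sides of the control in both mutants: Srebf1 had 41.2 and 38.1 against 17.3 CPM and Srebf2 24.8 and 44.7 against 61.4 CPM. Scd2 did not part the libraries, at 512, 542 and 522 CPM.

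Microglia-like cells differed little. Of 23 genes 2 were lower in the Emx1-Cre mutant, where 27.5% of all genes were, and 1 higher, where 11.1% were. In the hGFAP-Cre mutant 1 of 22 was lower (Srebf2), where 16.0% of all genes were, and 0 higher, where 10.5% were. Srebf2 had 10.0 CPM in Emx1-Cre and 5.37 in hGFAP-Cre cells against 13.6 CPM. The fatty acid sums were 212, 229 and 227 CPM.

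In multipotent progenitor-like cells (36, 182 and 535 cells) the sterol sum was 1125 CPM in Emx1-Cre and 899 in hGFAP-Cre against 898 CPM in control cells. Of 29 genes 7 were lower in the Emx1-Cre mutant, where 38.7% of all genes were, and 7 higher, where 12.4% were. For hGFAP-Cre, 4 of 27 were lower, where 21.8% of all genes were, and 0 higher, where 7.12% were. Acat2 there had 24.3 and 46.0 against 83.6 CPM and Sqle 33.4 and 54.9 against 92.6 CPM, while Idi1 had 191 and 128 against 99.7 CPM.

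Intermediate progenitor-like cells had sterol sums of 599, 685 and 741 CPM, or log2 ratios of −0.31 (−0.38 to −0.24) and −0.11 (−0.18 to −0.050). Of 28 genes 6 were lower in the Emx1-Cre mutant, where 18.4% of all genes were, and 0 higher, where 6.94% were. For hGFAP-Cre, 2 of 27 were lower, where 13% of all genes were, and 1 higher (Idi1), where 7.17% were. Mvk stood at 13.7 and 18.9 against 31.2 CPM, and Idi1 at 19.0 and 44.0 against 21.0 CPM.

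Olfactory bulb type interneuron lineage-like cells had sums of 867, 790 and 918 CPM. With cluster 26 left out, the Emx1-Cre log2 ratio was 0.47 on 43 cells, in place of −0.082. Of 27 genes 5 were lower in the Emx1-Cre mutant, where 22.6% of all genes were, and 3 higher, where 11.7% were. The hGFAP-Cre mutant had 4 of 28 lower, where 14.2% of all genes were, and 1 higher, where 6.64% were. Abca1 in that lineage was above the control in both mutants, at 46.3 and 38.6 against 17.7 CPM.

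Endothelial-like cells (46, 57 and 106 cells) had sterol sums of 421, 592 and 481 CPM, or log2 ratios of −0.19 (−0.46 to 0.063) and 0.30 (0.097 to 0.50). Of 27 genes 10 were lower in the Emx1-Cre mutant, where 21.9% of all genes were, and 1 higher, where 11.8% were. The hGFAP-Cre mutant had 0 of 28 lower, where 16.3% of all genes were, and 5 higher, where 15% were. Acly had 17.1 and 39.7 against 47.7 CPM, and Hmgcs1 59.7 and 107 against 43.9 CPM. Mural-like cells had sterol sums of 415, 382 and 482 CPM, on 197, 82 and 36 cells. There 6 of 27 genes were lower in the Emx1-Cre mutant, where 36.8% of all genes were, and 2 higher, where 15.9% were, and for hGFAP-Cre 8 of 28 were lower, where 30.4% were, and 4 higher, where 19.0% were.

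Mvk and Srebf2, picked after the values were seen, were at least 1.5-fold lower in most classes of both mutants. Mvk and Srebf2 had log2 ratios below 0 in 12 of 12 classes in each mutant. The median of all genes was also below 0 in each of these classes in both mutants. The share of all genes below 0 in 12 of 12 classes is not given, so this count has no background. Srebf2 was at least 1.5-fold lower in 8 classes of the Emx1-Cre and 8 of the hGFAP-Cre mutant, Mvk in 9 and 8, and Acat2 in 10 and 6. These counts do not ask for intervals that are apart, and some rest on few UMIs. In mural-like cells Acat2 had 6 UMIs in the Emx1-Cre, 1 in the hGFAP-Cre and 3 in the control library. Srebf2 there had 4 UMIs in hGFAP-Cre against 5 in control cells. Acly was lower in 9 classes of the Emx1-Cre and 5 of the hGFAP-Cre mutant. Pmvk, Insig1 and Insig2 were lower in 0 of 12 classes in either mutant. Of 26 members at 10 CPM in at least 8 classes, 5 were lower in at least 6 classes of the Emx1-Cre mutant (Acat2, Mvk, Srebf2, Acly and Elovl6), where 14.7% of all such genes were, and 0 were higher, where 4.02% were. Of 27 such members in the hGFAP-Cre mutant, 4 were lower (Acat2, Mvk, Sqle and Srebf2), where 8.46% of all such genes were, and 0 were higher, where 3.71% were. These class numbers were chosen after the values were seen, and the Emx1-Cre count lies near the share of all such genes. Without cluster 20 the excitatory log2 ratios were −0.51 and −0.27 for Acat2, 0.028 and −0.28 for Mvk and 0.10 and −0.13 for Sqle, so none of these then counts as lower there. Acat2 and Sqle reached 6 classes of the hGFAP-Cre mutant only with that cluster. The hGFAP-Cre count of 4 thus depends on it, and the share of all such genes without it is not given. The mutants share the control library, so a control value that stands apart gives both the same direction.

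**Figure D5:**
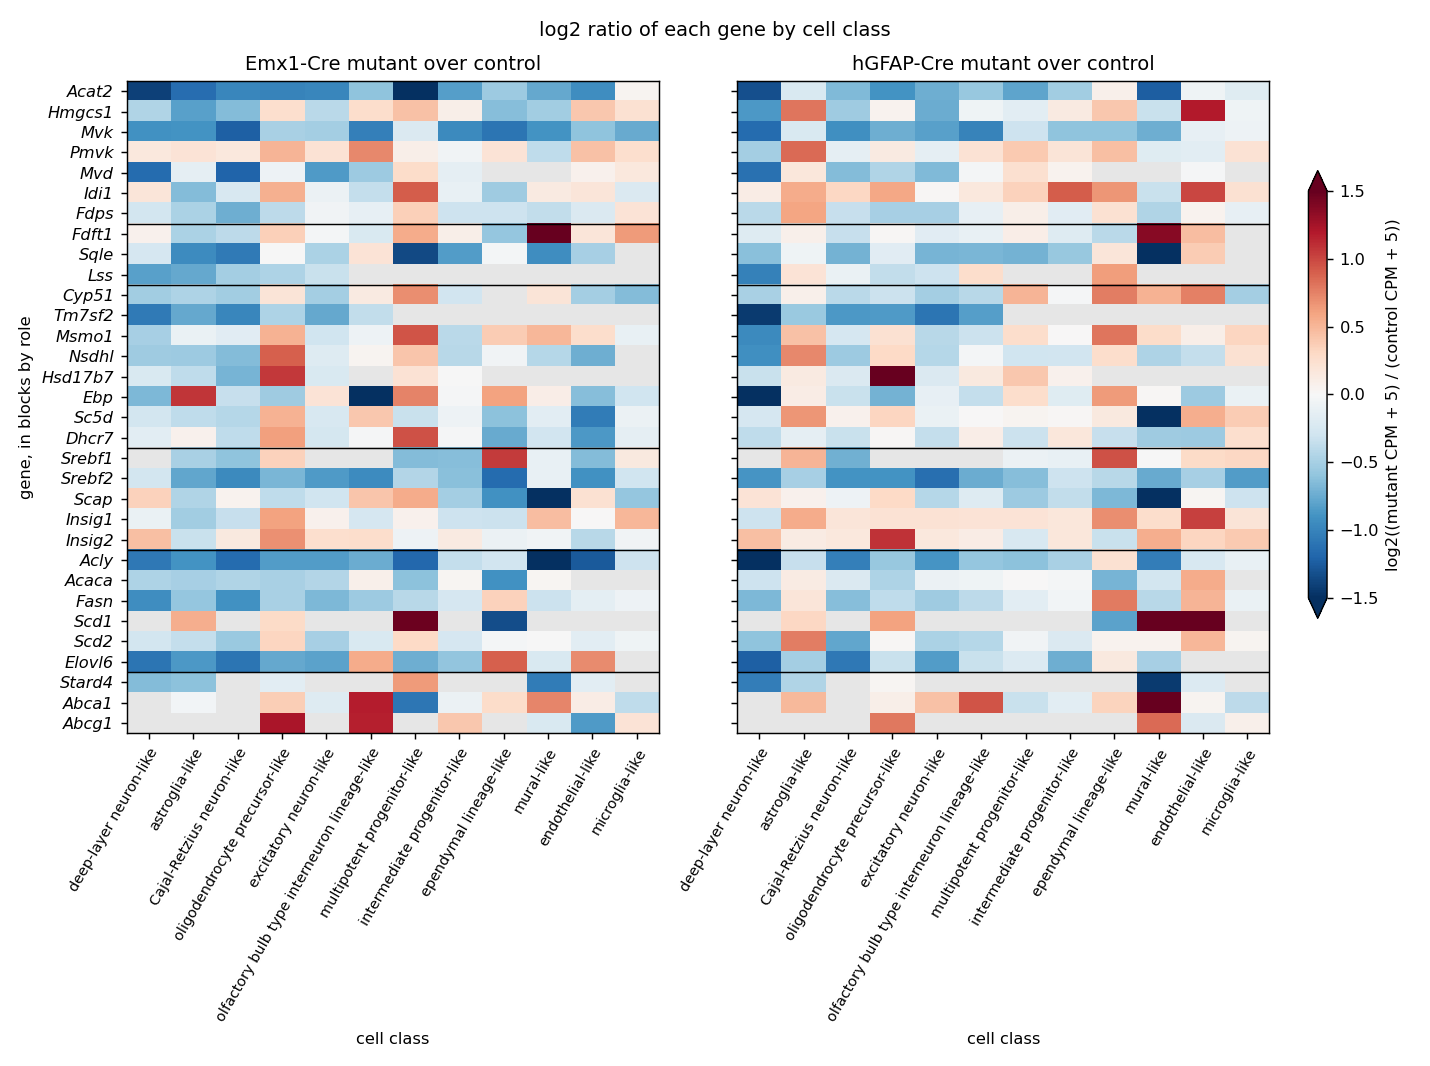
Log2 ratio of each mutant over the control, on the log2(CPM + 5) scale, for each of the 32 genes (rows, in blocks by role) and each of the 12 cell classes (columns); blue is lower and red higher in the mutant, and grey cells did not reach 10 CPM in either library. Acat2, Mvk, Srebf2 and Acly are blue across most columns of both panels, and Hmgcs1, Pmvk, Fdps and Scd2 are red in hGFAP-Cre astroglia-like cells.

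Some values are uncertain for reasons of annotation. Acat2 on chromosome 17 (12942890 to 12960747, minus strand, GRCm38) has a near copy, Acat3, beside it, at 12923813 to 12940600 on the same strand. Reads that the pair shares could be lost or split, and Acat3 had 0.939, 1.65 and 2.61 CPM in the whole libraries. Of the 32 genes, 9 overlap another counted gene, 2 of them on the same strand (Fdps with Gm43738 and Tm7sf2 with Vps51).

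Beyond the 32 genes, a list of 52 other lipid genes (among them elongases, fatty acid desaturases, lipid-binding proteins and enzymes of fatty acid oxidation) was counted in the same way. In astroglia-like cells of the Emx1-Cre mutant 8 of 38 were lower, where 31.3% of all genes were, and 5 higher, where 7.56% were. The median log2 ratio was −0.23, against −0.48 for the 31 members and −0.33 for all genes. In the hGFAP-Cre mutant 1 of 41 was lower, where 15.5% of all genes were, and 4 higher, where 10.9% were. Their median was 0.15, close to the 0.14 of the members. In Cajal-Retzius neuron-like cells 6 of 38 were lower in the Emx1-Cre mutant, where 15.2% of all genes were, and 1 higher, where 5.3% were. The hGFAP-Cre mutant had 8 of 37 lower there, where 15.8% of all genes were, and 0 higher, where 5.11% were. In excitatory neuron-like cells of the hGFAP-Cre mutant 0 of 31 were lower, where 11.7% of all genes were, and 1 higher, where 4.69% were. Of the members there, 9 of 28 were lower with cluster 20 and 4 without it.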

How the data were processed

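The authors deposited unnormalised UMI counts, 1 matrix of genes by barcodes for each library, written by Cell Ranger 5.0.0, per the file headers, on mm10, per the submitters' processing notes. All 3 libraries were read as deposited, and depth is given in the report. Barcodes with at least 1000 genes and under 10% mitochondrial UMIs were kept, and doublets predicted by Scrublet in scanpy 1.11.5 (expected rate 10%) were removed, 7.76% of Emx1-Cre, 8.14% of hGFAP-Cre and 3.57% of control barcodes. The 32 genes, the other lipid genes, sex-linked and ERK-responsive genes stayed out of the 2000 variable genes; 30 components, 15 neighbours and Leiden clustering (leidenalg 0.10.2, resolution 1) followed, with no batch correction. Clusters took the class with the most of its markers raised (at least 2-fold and in 25% of cells, at least 3 markers), unless another class had more of the cluster's top genes. UMIs were summed per class and library into CPM. Sums are compared by their ratio, with exact conditional 95% intervals, and single genes as log2(CPM + 5). Classes need 30 cells. Genes named with values are those at least 1.5-fold apart with intervals apart, up to 6 a direction, every member in astroglia-like cells, and others chosen after their values were seen. The computation was tested on simulated counts. Numpy 2.4.6, scipy 1.17.1 and scikit-learn 1.9.0 were used. Replicates, and so p-values, could not be had. The members and lists were chosen with earlier results of these data known. Some genes of the pathway are not reported here.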

Additional observations from a re-analysis of the deposited data

Results flagged for a closer look

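In 3 sums the mutants lay on opposite sides of the control, each with an interval that left out 0, and whether the mutants differ was not tested, since each value is 1 library. The sterol enzymes in astroglia-like cells had log2 ratios of −0.53 in Emx1-Cre and 0.47 in hGFAP-Cre cells. The fatty acid enzymes in the same class had −0.44 and 0.56. The sterol enzymes in ependymal lineage-like cells had −0.25 and 0.29, on 1208 Emx1-Cre, 395 hGFAP-Cre and 31 control cells.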

How the results depend on the processing

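No paired analysis was possible because each genotype has 1 library. The values below are log2 ratios in the order of the Emx1-Cre and the hGFAP-Cre mutant. The sterol sum in astroglia-like cells was −0.53 and 0.47. It was −0.19 and 0.56 centred on the median of all genes, −0.60 and 0.29 with predicted doublets kept, −0.70 and 0.23 when each cell had to hold 2000 genes, −0.50 and 0.43 with every cell counting alike, −0.46 and 0.37 without the gene with the most UMIs and −0.64 and 0.40 at resolution 2. The hGFAP-Cre value was also 0.27 in cells without Mki67 or Top2a and 0.42 thinned to 2500 UMIs. With clusters 14 and 24 joined it was −0.67 and 0.18, and in cycling cluster 10 alone −0.33 and −0.56, and both of these settings were chosen after the data were seen. The fatty acid sum there (−0.44 and 0.56) was −0.10 and 0.65 centred, −0.53 and 0.39 with doublets, −0.56 and 0.41 with 2000 genes, −0.55 and 0.33 without Mki67 or Top2a, −0.60 and −0.036 without Scd2, −0.54 and 0.51 at resolution 2, −0.50 and 0.35 with clusters 14 and 24, and −0.13 and −0.64 in cluster 10. The hGFAP-Cre value was 0.51 with every cell alike and 0.50 thinned. The whole-library sterol sum (−0.47 and −0.19) was −0.27 and −0.10 centred, −0.36 and −0.080 with 2000 genes, −0.41 and −0.15 without Mki67 or Top2a, −0.42 and −0.10 with every cell alike, −0.40 and −0.071 thinned and −0.43 and −0.23 without the top gene and −0.30 and −0.029 without cluster 20. In excitatory neuron-like cells, settings added after the data were seen gave sterol sums (−0.30 and −0.51) of −0.14 and −0.39 thinned and 0.40 and 0.19 without cluster 20, and fatty acid sums (−0.64 and −0.56) of −0.59 and −0.48 thinned and −0.48 and −0.40 without it. With cluster 13 left out instead, the excitatory sterol sums were −0.82 and −0.95. For the counts of members that follow, the share of all genes is given above only for the main setting and cluster 10. The counts under the other settings have no background, so they do not show a shift particular to the members. Of the members, 12 differed in Emx1-Cre astroglia-like cells, 4 when centred (2 lower) and 2 at 2-fold. In the hGFAP-Cre mutant 6 differed, 0 of them lower; the number was 3 without Mki67 or Top2a and 11 in cluster 10, all of them lower, and 0 at 2-fold. Of the 5 with doublets kept, the 5 with 2000 genes and the 4 with clusters 14 and 24, 3 were lower in each. The cause of these shifts was not tested. Depth limits genes under 10 CPM and classes with few control cells.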
